A study of Homo sapiens with 12 samples.

Results

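Gene expression with heregulin was compared with that of untreated cells in MCF10A, an immortal but non-tumorigenic epithelial line from human breast, engineered to carry full-length human HER2 fused to FKBP and HA tags. The comparison takes 6 of the 12 arrays of the series, the 3 labelled heregulin and the 3 labelled untreated, chosen by those labels alone. All cells carried the chimera, and the labels used here do not say whether the line is 1 clone. Growth medium held 5% horse serum with EGF at 20 ng/ml, cholera toxin at 100 ng/ml, hydrocortisone at 500 ng/ml and insulin at 10 microgram/ml. For 24 hours before ligand the cells were kept without serum and EGF. Heregulin was then present for 48 hours. Its dose and the time at which untreated dishes were harvested are not stated in the labels, so time in culture cannot be told apart from the ligand. The other 6 arrays held cells given TGF-alpha, an EGFR ligand, or AP1510, a bivalent compound that brings FKBP-tagged receptors together, and serve here only to show where heregulin differed. Dishes were plated in triplicate, so each p-value measures the spread between dishes and their arrays.

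Heregulin is a protein product of NRG1. It binds HER3 or HER4, which then pair with HER2, a receptor with no known ligand of its own. HER3 has little kinase activity and many docking sites for PI3 kinase, so pairs of HER2 and HER3 are known as strong activators of PI3 kinase and AKT as well as of the RAS and ERK cascade. In the mammary gland these receptors take part in duct growth and in differentiation of the secretory epithelium.

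Levels are deposited log2 values, on which a difference of 1 is a doubling, and they ran from 1.75 to 14.2. A level is compared here between arrays and not between genes, since probe sets differ in brightness. In untreated cells the epithelial genes KRT5, CDH1 and EGFR read 11.50 ± 0.16, 10.95 ± 0.01 and 8.67 ± 0.04 (SD, n = 3), the hormone receptor genes ESR1 and PGR 4.39 ± 0.16 and 3.51 ± 0.17, and the leukocyte gene PTPRC 3.01 ± 0.08. CD14, CSF1R and PECAM1, further leukocyte and endothelial markers, were at 9.61 ± 0.17, 6.10 ± 0.19 and 8.54 ± 0.03. The other probe set of PECAM1 had a mean of 2.69 over the 12 arrays, against 8.52 for the one used. The 11 leukocyte markers as a whole had untreated means of 2.9 to 9.61. Of the 6 arrays compared, heregulin replicate 2 was the least like its group, with 59 genes over 0.5 from the group mean. Replicates 1 and 3 had 45 and 20 such genes and the untreated arrays 14 to 20. AP1510 replicate 1 had 94, the most of the 12 arrays, and it enters the spread that all tests share. On the second principal component, which held 19.6% of the variance, the heregulin arrays lay at -30.1 to -17.8 and the other 9 arrays at 1.40 to 11.7.

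Among the gene lists described here, heregulin-treated cells had the largest share of risen genes in the list that glucocorticoids induce (9 of 14) and the largest share of fallen genes among early response genes (10 of 17). CFB, SAA1 and SAA2 were among the 4 largest rises of single genes, and TCN1, VTCN1 and PEG10 were the 3 largest falls. Of 18417 genes tested with limma, 1566 (8.5%) passed an adjusted p of 0.05, 635 of them higher (3.45%) and 931 lower (5.06%). A change of at least 2-fold was reached by 193 of these (1.05%), 96 up (0.521%) and 97 down (0.527%). The shares of 3.45% and 5.06% hold for all genes and belong beside each count of risen or fallen list members given here. With 1 of the 6 arrays left out 1039 to 1361 genes passed, fewest without untreated replicate 3; the genes that fell numbered 613 without untreated replicate 1 and 608 without replicate 3. Weighting arrays by quality gave 3000.

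**Figure D1:**
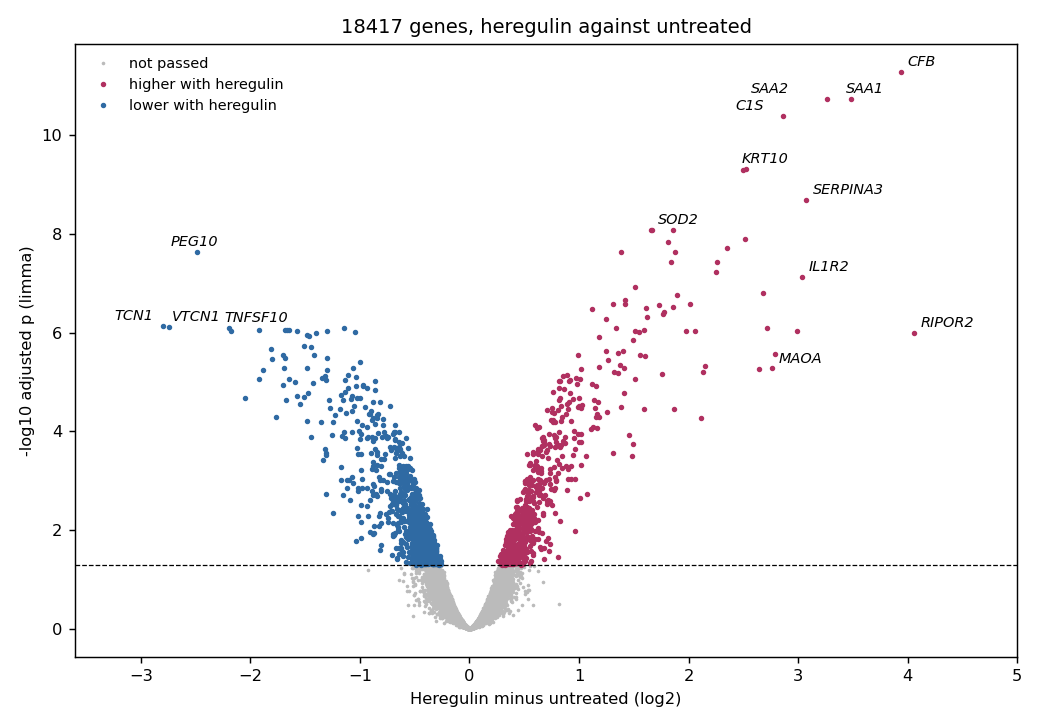
Each point is 1 of 18417 genes, with the log2 difference between heregulin and untreated means (n = 3 arrays each) on the x axis and -log10 of limma's adjusted p on the y axis; the dashed line is an adjusted p of 0.05. CFB lies highest on the right and PEG10 highest on the left.

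RIPOR2, which encodes an inhibitor of the small GTPase RhoA, rose most. It read 5.24, 4.87 and 4.82 on the untreated arrays and 9.21, 9.09 and 8.80 on the heregulin arrays, a log2 change of 4.06 ± 0.34 (SE, adjusted p = 1.0e-06). The groups did not overlap. With TGF-alpha RIPOR2 read 8.01 to 8.12, below every heregulin array, but that difference did not pass (log2 0.97 ± 0.34, adjusted p = 0.055). Its SE uses the gene's spread over all 12 arrays. The SD was 1.09 with AP1510, a group outside this contrast, against 0.21 with heregulin and 0.06 with TGF-alpha. The 15 largest rises, each at least 5.71-fold, were RIPOR2, CFB, SAA1, SAA2, SERPINA3, IL1R2, SERPINB3, C1S, SULT1E1, MAOA, SCNN1G, MUC21, ZBTB16, KRT10 and PI3. By limma's test all 15 were also above the AP1510 arrays, as were 3.27% of all genes, and 12 were above the TGF-alpha arrays, as were 9.88%. The 15 largest falls, each at least 3.24-fold, were all below the AP1510 arrays (3.95% of all genes). Against TGF-alpha only PEG10 and MGP of them were lower (11.8% of all genes) and 5 were higher. These genes were chosen on the same heregulin arrays that enter both contrasts, so their shares are in part fixed by that choice and nothing is read from them against the shares of all genes; the same holds for each count given below of risen or fallen genes that lay apart from every group. In either direction 21.6% of all genes differed from TGF-alpha and 7.23% from AP1510.

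Complement genes gave a wide separation. CFB, which encodes factor B of the alternative complement pathway, read 7.46, 7.40 and 7.60 in untreated cells and 11.59, 11.35 and 11.33 with heregulin. That is a rise of 15.3-fold (adjusted p = 5.3e-12), a log2 change of 3.94 ± 0.11, and its other 2 probe sets gave 13.9-fold each. With TGF-alpha CFB read 5.81, 5.78 and 5.85, below every untreated array. C1S, a serine protease of the C1 complex, read 4.10, 4.08 and 4.03 and then 7.05, 6.90 and 6.85, a rise of 7.28-fold (adjusted p = 4.2e-11). Its partner protease C1R rose 3.33-fold (adjusted p = 2.8e-07). Smaller rises were those of C3, the central complement protein, at 1.30-fold (adjusted p = 0.0051), and CD55, which speeds the decay of complement convertases, at 1.29-fold (adjusted p = 0.013). The CD55 call ended without untreated replicate 1 (adjusted p = 0.05). Of 13 measured complement genes and regulators, 5 rose, 0 fell and 8 did not pass. All 5 were higher with heregulin than in each of the other 3 groups, a position held by 1.13% of all genes. The median log2 change of the list was 0.25, against 0.01 over all genes. It was 0.14 without untreated replicate 3 and 0.11 with array weights, which also gave 3 fallen genes.

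Acute phase proteins are defence proteins of blood and epithelia that rise in inflammation. SAA1, a serum amyloid A gene, read 7.25, 7.09 and 7.29 in untreated cells and 10.93, 10.53 and 10.60 with heregulin, a rise of 11.1-fold (adjusted p = 1.9e-11). SAA2 rose 9.60-fold (adjusted p = 1.9e-11), and its other probe set gave 7.32-fold. The 2 genes are near-identical copies whose probes may read each other's RNA, so how the signal divides between them is uncertain. SERPINA3, an inhibitor of chymotrypsin-like proteases, read 6.62, 6.63 and 6.17 and then 9.74, 9.55 and 9.35, a rise of 8.42-fold (adjusted p = 2.0e-09). PI3, the elastase inhibitor elafin, rose 5.71-fold (adjusted p = 1.3e-08), SERPINA1, alpha-1 antitrypsin, 2.84-fold (adjusted p = 1.2e-07) and LCN2, the iron-siderophore carrier lipocalin 2, 2.47-fold (adjusted p = 2.6e-07). For each of these 6 genes the heregulin and untreated arrays did not overlap, which held for 23.8% of all genes (8.45% with a passed test as well). It also held for 1557 of the 1566 genes that passed, so for genes chosen by that test it is no added support. In all, 6 of 17 measured acute phase genes rose and 0 fell, and the 6 were above each of the other groups. TGF-alpha also raised SERPINA3 (log2 2.29 against untreated, adjusted p = 1.3e-08) and SERPINA1 (log2 0.93, adjusted p = 3.0e-06). LCN2 was lower with TGF-alpha than untreated (log2 -0.43, adjusted p = 0.0023), and SAA1, SAA2 and PI3 did not pass there. The list's median was 0.17. With genes below a mean level of 6 left out, only 6 of the 17 measured genes remained, 5 of them risen. The median of those left was 2.79.

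**Figure D2:**
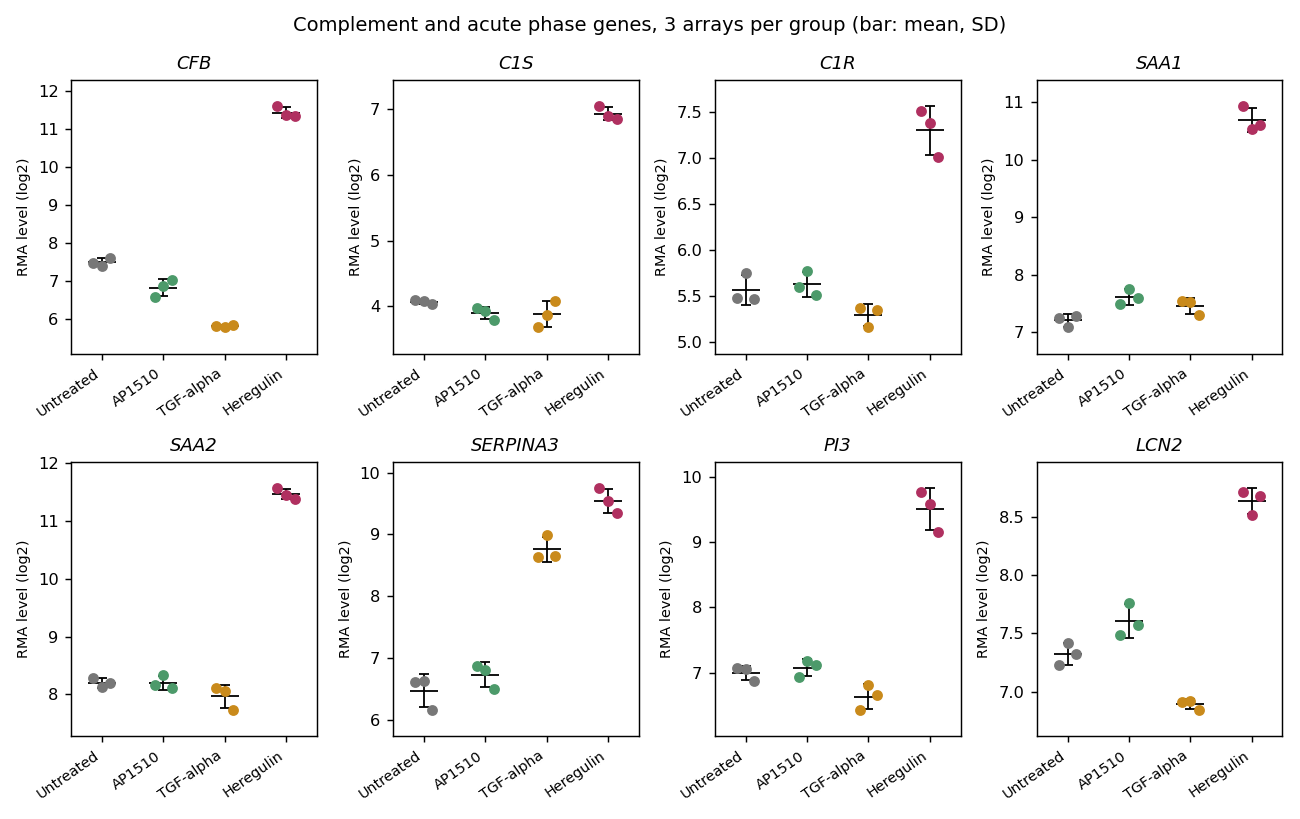
Points are single arrays, 3 per group, on the log2 RMA scale of the y axis, and bars give the mean and SD. The heregulin arrays lie above all other arrays in each of the 8 panels; CFB runs from 5.78 with TGF-alpha to 11.59 with heregulin.

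NF-kB is a transcription factor held in the cytoplasm by inhibitors such as NFKBIA, which it induces in turn. Of 19 measured NF-kB feedback and target genes, 9 rose and 2 fell. SOD2, mitochondrial superoxide dismutase, read 9.61, 9.42 and 9.54 without ligand and 11.31, 11.16 and 11.08 with heregulin, a rise of 3.17-fold (adjusted p = 8.5e-09). TNFAIP3, the feedback inhibitor A20, rose 1.90-fold (adjusted p = 4.9e-04), TLR2, a receptor for bacterial lipopeptides, 1.85-fold (adjusted p = 0.0015) and NFKB2, which encodes the p100 subunit, 1.81-fold (adjusted p = 7.6e-06). NFKBIA rose 1.43-fold (adjusted p = 0.0026) and TNIP1, a partner of A20, 1.61-fold (adjusted p = 1.7e-04); this pair was named after the values were seen. CD14, a co-receptor for lipopolysaccharide, fell 1.61-fold (adjusted p = 0.0025). Against TGF-alpha 16 of the 19 were higher and 0 lower (9.88% and 11.8% of all genes). Above all 3 other groups were 8 (1.13% of all genes).

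The acute phase, complement and NF-kB genes that rose were looked at in sequence, over the 250 bases before their RefSeq starts (GRCh38.p14). Both strands were searched for an NF-kB-type motif, GGG and TNCC with any 3 bases between them. A match was present in 8 of the 14 risen genes found in the promoter table (57.1%), in 8 of 21 other measured members of these lists (38.1%) and in 18.6% of all 27305 promoters. A STAT-type motif, TTCNNNGAA, was in 2 of the 14 risen genes, 4 of the 21 others and 6.78% of all promoters. A C/EBP-type motif, TTGCNNAA, was in 2 of the risen genes, 4 of the others and 9.13% of all promoters. One of the 3 lists was chosen as NF-kB targets. These are matches of letters, not sites shown to be bound. Of the 20 risen genes, SAA1, SAA2, C1S, C3, PI3 and RELB had no entry there. In the sequences that follow only NF-kB-type matches stand in capitals, 2 in TNFAIP3 and 1 in each of the others. A STAT-type match in CFB and a C/EBP-type match in LCN2 stay in lower case. Of the 8 risen genes with a match, CD55, TLR2 and TNIP1 are not shown. The sequences shown each belong to a gene that rose and hold an NF-kB-type match. They are chr6:31945845-31946094 (plus strand) for CFB, chr14:94612141-94612390 (plus strand) for SERPINA3, chr9:128149203-128149452 (plus strand) for LCN2, chr14:35404750-35404999 (minus strand) for NFKBIA and chr6:137867009-137867258 (plus strand) for TNFAIP3, each written 5′ to 3′ along the gene.
CFB: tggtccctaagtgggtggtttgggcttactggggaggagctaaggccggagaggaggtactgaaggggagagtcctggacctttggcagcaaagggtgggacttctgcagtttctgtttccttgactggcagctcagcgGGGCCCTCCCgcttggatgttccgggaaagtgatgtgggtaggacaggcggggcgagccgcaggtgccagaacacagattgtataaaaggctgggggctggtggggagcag
SERPINA3: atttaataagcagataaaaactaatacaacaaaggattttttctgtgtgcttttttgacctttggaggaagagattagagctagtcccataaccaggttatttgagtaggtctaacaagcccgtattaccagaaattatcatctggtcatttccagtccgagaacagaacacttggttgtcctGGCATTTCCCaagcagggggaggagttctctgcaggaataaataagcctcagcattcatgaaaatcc
LCN2: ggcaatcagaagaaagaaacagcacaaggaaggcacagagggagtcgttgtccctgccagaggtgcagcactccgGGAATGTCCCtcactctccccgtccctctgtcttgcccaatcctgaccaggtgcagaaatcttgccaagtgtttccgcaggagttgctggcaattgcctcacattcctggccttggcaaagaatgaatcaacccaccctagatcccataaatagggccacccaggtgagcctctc
NFKBIA: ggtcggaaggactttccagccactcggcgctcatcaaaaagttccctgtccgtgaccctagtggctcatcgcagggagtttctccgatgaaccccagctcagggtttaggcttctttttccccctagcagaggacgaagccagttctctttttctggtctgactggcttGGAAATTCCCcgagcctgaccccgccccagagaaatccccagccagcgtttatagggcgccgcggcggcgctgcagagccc
TNFAIP3: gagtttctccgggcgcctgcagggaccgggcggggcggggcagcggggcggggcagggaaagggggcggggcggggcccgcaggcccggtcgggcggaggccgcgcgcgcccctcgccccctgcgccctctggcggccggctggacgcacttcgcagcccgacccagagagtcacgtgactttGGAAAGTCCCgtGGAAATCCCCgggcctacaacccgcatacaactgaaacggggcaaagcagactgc

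A few cytokine genes changed, in both directions. Of 25 measured chemokines and cytokines 2 rose, 3 fell and 20 did not pass, where 3.45% of all genes rose and 5.06% fell. CCL28, a fallen gene, did not pass without any 1 of the untreated arrays or without heregulin replicate 2 or 3. The risen count was 3 without untreated replicate 2 and 3 without heregulin replicate 1. CXCL1, a neutrophil chemokine, rose 1.94-fold (adjusted p = 9.7e-05) and CCL20, which draws lymphocytes and dendritic cells, 2.02-fold (adjusted p = 4.9e-04). LIF and IL6 encode cytokines that signal through the gp130 receptor. LIF read 5.93, 6.22 and 6.13 and then 4.47, 4.80 and 5.05, a fall of 2.50-fold (adjusted p = 2.3e-04), and IL6 fell 1.57-fold (adjusted p = 0.0051). IL1R2, the decoy receptor for interleukin-1, read 6.23, 6.70 and 6.04 without ligand and 9.39, 9.29 and 9.41 with heregulin, a rise of 8.21-fold (adjusted p = 7.5e-08). Its difference from TGF-alpha did not pass (log2 0.18 ± 0.20, adjusted p = 0.61).

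Interferon-stimulated genes had 1 risen and 5 fallen of 24. IFI44L rose 1.89-fold (adjusted p = 1.7e-05), while IFIT2 fell 1.98-fold (adjusted p = 0.0031), the GTPase gene GBP2 1.85-fold (adjusted p = 0.002) and the transcription factor gene IRF1 1.77-fold (adjusted p = 0.0082). GBP2 was nonetheless above TGF-alpha by 5.35-fold (adjusted p = 2.2e-08). In antigen presentation 3 of 10 measured genes rose and 0 fell, with the peptide transporter genes TAP1 at 1.72-fold (adjusted p = 6.4e-05) and TAP2 at 1.46-fold (adjusted p = 0.0016).

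Genes that glucocorticoids induce rose as a list: 9 of 14 measured members rose and 0 fell, with a median log2 change of 0.72. The count that rose was 9 with each of the 6 arrays left out, and 1 gene fell without heregulin replicate 1. The fallen count was also 1 with renewed quantile normalization, genes below a mean level of 6 left out, a trended robust spread or array weights. ZBTB16, a zinc finger factor, read 6.64, 6.36 and 6.66 in untreated cells and 9.21, 9.27 and 9.11 with heregulin, a rise of 6.24-fold (adjusted p = 5.6e-06). HSD11B2, which turns cortisol into inactive cortisone, read 7.14, 7.74 and 6.90 and then 9.29, 9.32 and 9.57, a rise of 4.39-fold (adjusted p = 6.2e-06). With AP1510 it read 10.43, 9.58 and 9.59, and the difference from heregulin did not pass (adjusted p = 0.23). TSC22D3, which encodes the leucine zipper protein GILZ, rose 2.62-fold (adjusted p = 3.2e-05); its difference from TGF-alpha did not pass (log2 -0.20 ± 0.16, adjusted p = 0.46). The metallothionein genes MT2A and MT1X, whose products bind zinc and copper, rose 3.64-fold (adjusted p = 3.0e-07) and 3.5-fold (adjusted p = 1.5e-08). Metallothionein genes are close copies, and their probes may share signal.

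Of the 15 largest rises, 3 more are given here by array. SCNN1G, a subunit of the aldosterone-regulated epithelial sodium channel, read 7.0, 6.99 and 6.84 and then 9.74, 9.74 and 9.49, a rise of 6.56-fold (adjusted p = 8.1e-07). TGF-alpha arrays read 9.62, 9.85 and 9.73, and the difference did not pass (log2 -0.08 ± 0.22, adjusted p = 0.86). SULT1E1, which sulphates oestrogens, read 4.90, 4.46 and 4.70 and then 7.74, 7.09 and 7.58, a rise of 6.90-fold (adjusted p = 2.7e-06). MAOA, monoamine oxidase A, rose 6.78-fold (adjusted p = 5.3e-06). For all 3 genes every heregulin array was above every untreated array, which was a condition for being among the 15.

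Squamous differentiation is the programme by which stratified epithelium makes suprabasal keratins and a cornified envelope. The list split: of 36 measured genes 10 rose, 6 fell and 20 did not pass. KRT10, a keratin of suprabasal cells, read 10.07, 9.89 and 9.98 without ligand and 12.64, 12.39 and 12.47 with heregulin, a rise of 5.75-fold (adjusted p = 4.9e-10). SERPINB3, a protease inhibitor of squamous cells, read 3.79, 3.29 and 3.11 and then 6.75, 6.09 and 6.33, a rise of 7.97-fold (adjusted p = 9.2e-07). Its near-identical copy SERPINB4 may share its probes' signal. S100A9, a subunit of calprotectin, rose 4.03-fold (adjusted p = 2.6e-07). S100A8, its partner, named after the values were seen, read 10.43, 10.43 and 10.57 and then 12.15, 11.84 and 11.97, a rise of 2.85-fold (adjusted p = 8.7e-06), while TGF-alpha arrays read 8.03, 8.07 and 7.67. The desmosomal cadherin gene DSG3 rose 2.92-fold (adjusted p = 9.6e-07). KLK7, a kallikrein that cleaves desmosomal proteins, read 8.40, 8.46 and 8.67 and then 6.60, 6.70 and 7.44, a fall of 3.02-fold (adjusted p = 9.9e-06). Of the list, 9 genes were above each of the other 3 groups, as were 1.13% of all genes.

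**Figure D3:**
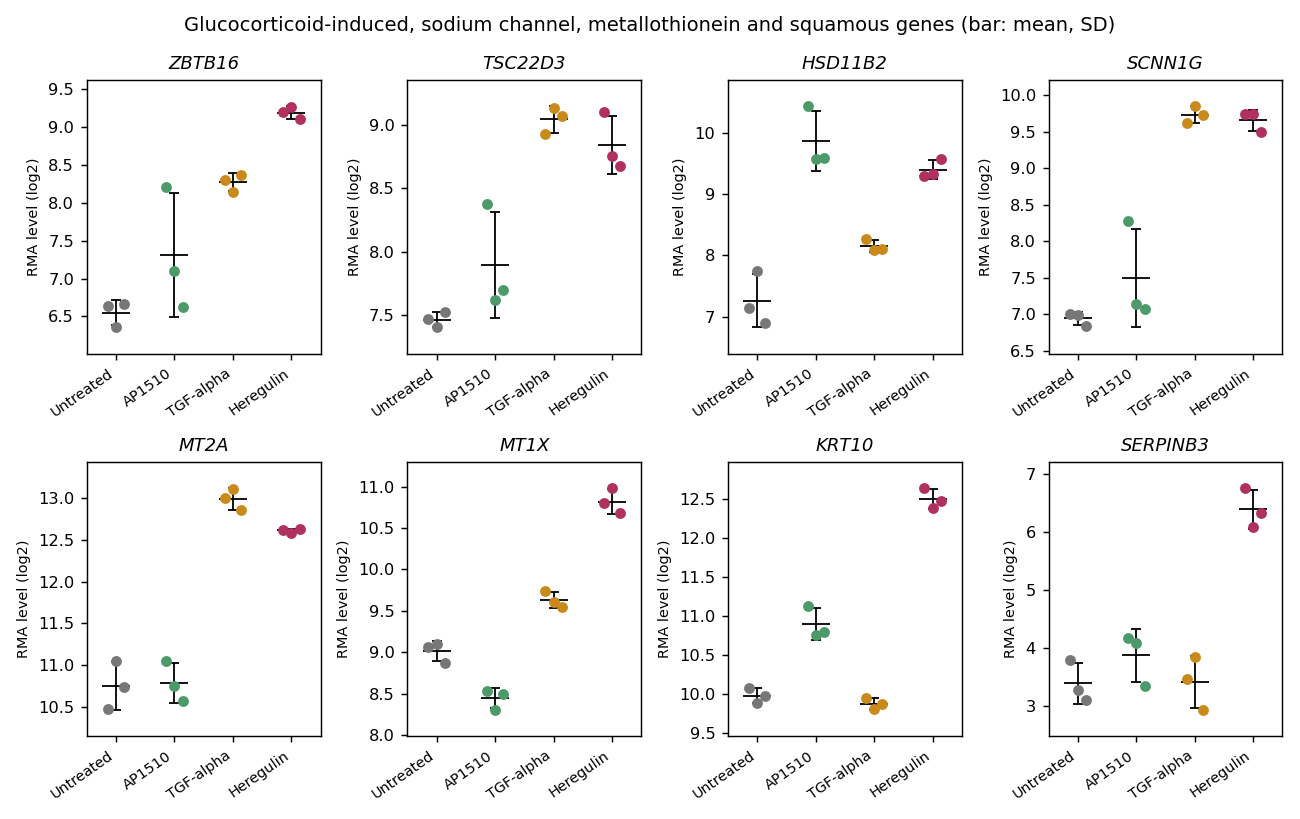
Points are single arrays, 3 per group, on the log2 RMA scale, with bars for the mean and SD. In all 8 panels the heregulin arrays lie above the untreated arrays; by mean HSD11B2 is highest with AP1510, and ZBTB16, MT1X, KRT10 and SERPINB3 are highest with heregulin.

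Basal and luminal markers name the outer and inner epithelial layers of the mammary duct. Among 8 measured basal markers 3 rose and 0 fell: KRT5 by 1.77-fold (adjusted p = 1.1e-04), KRT14 by 1.55-fold (adjusted p = 8.1e-05) and EGFR. Luminal and secretory markers had 4 risen and 3 fallen of 30. TCN1, a vitamin B12 binding protein of secretions, showed the largest fall of all genes that passed. It read 9.05, 8.86 and 9.20 without ligand and 6.08, 5.85 and 6.78 with heregulin, a fall of 6.96-fold (adjusted p = 7.2e-07) and a log2 change of -2.80 ± 0.22. Its difference from TGF-alpha did not pass (log2 -0.40 ± 0.22, adjusted p = 0.25). WFDC2, a secreted protein of gland epithelium, rose 2.60-fold (adjusted p = 2.4e-08) and MUC21, a transmembrane mucin, 6.40-fold (adjusted p = 1.6e-07). VTCN1, a ligand that restrains T cells, read 8.96, 8.57 and 8.67 and then 5.90, 5.96 and 6.12, a fall of 6.69-fold (adjusted p = 7.9e-07). In these bulk samples fewer cells of a type and less RNA per cell cannot be told apart.

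The heregulin receptors themselves did not pass the test. ERBB2, which encodes HER2 and whose probes may also read the chimera, read 10.94, 10.98 and 10.93 untreated and 10.97, 10.90 and 11.01 with heregulin (log2 change 0.01 ± 0.08, adjusted p = 0.95). ERBB3, the gene of HER3, read 8.04, 8.01 and 8.04 and then 7.93, 7.88 and 7.92 (log2 change -0.12 ± 0.10, adjusted p = 0.58), and ERBB4, for HER4, 3.91 to 4.37 on these 6 arrays. ERBB3 was above TGF-alpha by 1.74-fold (adjusted p = 2.7e-05). EGFR read 8.72, 8.66 and 8.64 and then 9.40, 9.24 and 9.17, a rise of 1.51-fold (adjusted p = 4.7e-04). The negative regulators went in different directions. ERRFI1, which binds and inhibits the EGFR kinase, read 9.98, 9.93 and 9.95 and then 10.76, 10.75 and 10.79, a rise of 1.76-fold (adjusted p = 1.3e-05), and was above all other groups. LRIG1 and LRIG3, of a transmembrane family known to modulate ErbB receptors, fell 2.18-fold (adjusted p = 4.4e-05) and 1.60-fold (adjusted p = 3.4e-04).

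Of 12 measured ErbB ligand and shedding protease genes 1 rose and 1 fell. HBEGF, a ligand of EGFR and HER4, read 7.99, 7.95 and 7.97 untreated and 6.38, 6.78 and 6.74 with heregulin, a fall of 2.53-fold (adjusted p = 3.8e-04). TGFA rose 1.35-fold (adjusted p = 0.047), its arrays overlapped, and the call ended in 4 of the 6 refits without 1 array: without untreated replicates 2 and 3 and heregulin replicates 1 and 3 (adjusted p up to 0.18). NRG1, the gene of heregulin itself, read 3.87 to 4.17 on the 6 arrays and did not pass. EREG, BTC, EGF, EPGN, NRG2, NRG3, NRG4 and the sheddases ADAM17 and ADAM10 had log2 changes of -0.20 to 0.17, none of which passed.

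ERK signalling switches on genes that feed back on it, and early response genes encode transcription factors first induced by growth factors. After 48 hours many of both kinds were lower with heregulin than in untreated cells. Of 20 ERK feedback and output genes 10 fell and 1 rose, with a median log2 change of -0.32. The gene that rose did not pass without untreated replicate 1 or 3 or heregulin replicate 3. PHLDA1, a growth-factor-induced gene, read 8.99, 8.98 and 8.91 untreated, 7.33, 7.19 and 7.42 with heregulin and 9.73, 9.43 and 9.79 with TGF-alpha, a fall from untreated of 3.14-fold (adjusted p = 8.9e-07). SPRED1, an inhibitor of RAS activation, fell 1.79-fold (adjusted p = 5.3e-05), and the MAP kinase phosphatase genes DUSP4 and DUSP5 2.56-fold (adjusted p = 6.6e-05) and 2.10-fold (adjusted p = 8.6e-04). ETV5, an ETS factor under ERK control, read 5.29, 5.25 and 5.06 untreated, 4.68, 4.68 and 4.34 with heregulin and 7.87, 7.94 and 7.93 with TGF-alpha, a fall from untreated of 1.55-fold (adjusted p = 0.0011). ETV1, a related factor, and DUSP6, an ERK phosphatase, did not pass (log2 changes -0.08 ± 0.12 and 0.22 ± 0.11) and were below TGF-alpha by 9.14-fold (adjusted p = 2.9e-11) and 3.90-fold (adjusted p = 2.6e-09). ETV5, ETV1 and DUSP6 were named after their values were seen. PHLDA1, SPRED1 and ETV5 were below each of the other 3 groups, as were 0.787% of all genes.

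Among 17 early response genes 10 fell and 0 rose by limma (0 also at an unadjusted p under 0.05), with a median log2 change of -0.61. EGR3, a zinc finger factor, read 8.22, 8.49 and 8.37 and then 6.30, 6.46 and 6.68, a fall of 3.68-fold (adjusted p = 5.9e-06). IER3 fell 2.48-fold (adjusted p = 3.0e-04), the AP-1 subunit genes JUN 2.41-fold (adjusted p = 3.3e-05) and FOSB 2.01-fold (adjusted p = 2.2e-05), and the nuclear receptor gene NR4A1 1.60-fold (adjusted p = 0.011). FOSB read 9.33, 9.44 and 9.55 with heregulin, between the untreated arrays at 10.61, 10.39 and 10.33 and the TGF-alpha arrays at 7.54, 7.37 and 7.59. Of the 17 genes 12 were higher with heregulin than with TGF-alpha and 1 was lower (9.88% and 11.8% of all genes). CCN1 and CCN2, matricellular genes driven by YAP and SRF, fell 2.25-fold (adjusted p = 5.4e-04) and 2.48-fold (adjusted p = 0.0018).

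**Figure D4:**
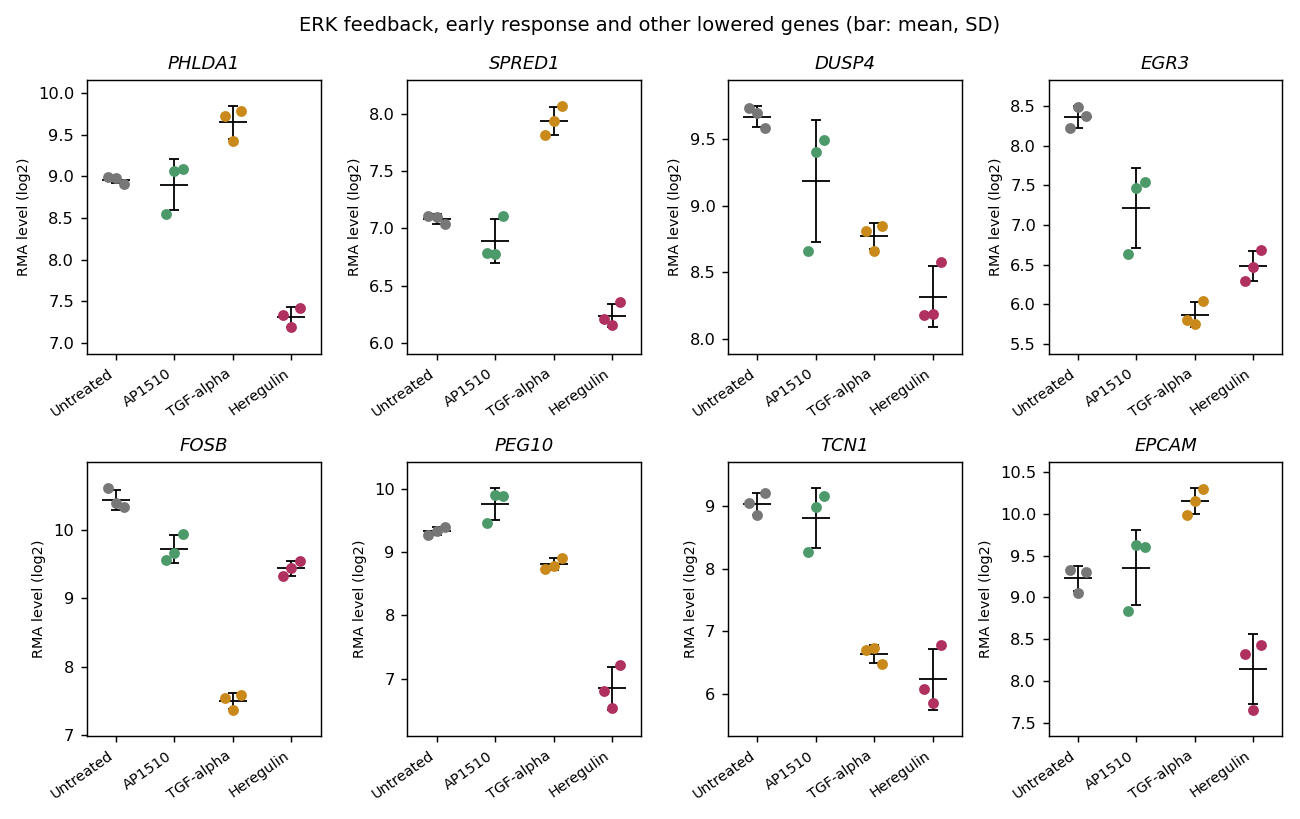
Points are single arrays, 3 per group, on the log2 RMA scale, with bars for the mean and SD. The heregulin arrays lie below the untreated arrays in all 8 panels; by mean PHLDA1, SPRED1 and EPCAM are highest and FOSB and EGR3 lowest with TGF-alpha, and PEG10 lies at 6.54 to 7.21 with heregulin against 8.73 to 9.91 on the other 9 arrays.

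Mitosis genes rose in part. Of 29 measured, 11 rose and 0 fell, with a median log2 change of 0.31. MKI67, the gene of the Ki-67 antigen, read 8.21, 8.21 and 8.18 and then 8.80, 8.55 and 8.76, a rise of 1.42-fold (adjusted p = 0.0031). The anaphase activator gene CDC20 rose 1.5-fold (adjusted p = 0.007) and ANLN, of the cytokinetic ring, 1.5-fold (adjusted p = 0.0063). With 1 array left out the mitosis count was 6 when untreated replicate 1 was missing, 6 for untreated replicate 2, 6 for heregulin replicate 1, 14 for heregulin replicate 2 and 3 for heregulin replicate 3. Among 29 DNA replication genes 0 rose and 1 fell by limma, with a median of -0.06; at an unadjusted p under 0.05, 0 rose and 5 fell. The gene that fell was RFC3, a subunit of the clamp loader at 1.38-fold (adjusted p = 0.037), whose call ended without any 1 of the 3 untreated arrays and without heregulin replicate 2 (adjusted p up to 0.15). All 29 mitosis genes and all 29 replication genes were lower with heregulin than with TGF-alpha, as were 11.8% of all genes.

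Growth and arrest genes gave counts that moved with single arrays. Ribosome biogenesis had 10 of 19 genes risen and 0 fallen, with NOLC1, a nucleolar phosphoprotein gene, at 1.57-fold (adjusted p = 6.4e-04) and ODC1, of polyamine synthesis, at 1.41-fold (adjusted p = 0.0016). That count was 6 without untreated replicate 3, 6 when heregulin replicate 1 was left out and 6 for heregulin replicate 3. Genes of cell cycle arrest and FOXO targets, which AKT is known to hold down, had 1 risen and 7 fallen of 20. Whether AKT had a part was not tested. The gene that rose was BCL6, at 1.57-fold (adjusted p = 2.3e-04), a call kept with each array left out. TNFSF10, the gene of the death ligand TRAIL, read 8.72, 8.37 and 8.57 and then 6.45, 6.21 and 6.40, a fall of 4.58-fold (adjusted p = 8.1e-07). TXNIP, an inhibitor of thioredoxin, fell 1.42-fold (adjusted p = 0.006) and CDKN1A, the gene of the kinase inhibitor p21, 1.43-fold (adjusted p = 0.0054). The fallen count was 4 without untreated replicate 1, 4 without untreated replicate 3 and 4 without heregulin replicate 1.

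PEG10, an imprinted gene derived from a retrotransposon, was the largest fall among genes below all other groups. It read 9.27, 9.35 and 9.40 untreated and 6.80, 6.54 and 7.21 with heregulin, a fall of 5.62-fold (adjusted p = 2.4e-08) and a log2 change of -2.49 ± 0.15. TGF-alpha arrays read 8.73 to 8.92 and AP1510 arrays 9.47 to 9.91, so no array of another group overlapped. SGCE, its imprinted neighbour that encodes epsilon-sarcoglycan, fell 1.87-fold (adjusted p = 2.8e-04) and MEST, another imprinted gene, 1.55-fold (adjusted p = 6.3e-04). Of 11 measured imprinted genes 3 fell, these 3, all of them below each other group, and 2 rose, PLAGL1 and GRB10. Neither of that pair passed without untreated replicate 2 or 3 or without heregulin replicate 1. EPCAM, an epithelial adhesion gene, read 9.33, 9.05 and 9.30 and then 8.32, 7.66 and 8.44, a fall of 2.13-fold (adjusted p = 0.0025), while TGF-alpha arrays read 9.99, 10.15 and 10.30. PEG10 and PHLDA1 were joined among the 8 largest such falls by MGP, TLR6, EVI2B, SEMA3A, WLS and TGFB2, at 2.69-fold to 5.62-fold. In all, 209 genes (1.13%) were above and 145 (0.787%) below every other group.

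Junction and matrix genes changed in part. CLDN4, a tight junction claudin, fell 2.34-fold (adjusted p = 4.8e-05) and DSP, the desmosomal plaque protein gene, rose 1.96-fold (adjusted p = 8.4e-06), with 1 risen and 4 fallen of 18 epithelial junction genes. LOX, which crosslinks collagen, read 7.77, 7.92 and 7.84 and then 10.05, 9.93 and 10.00, a rise of 4.45-fold (adjusted p = 4.8e-06). THBS1, a matrix glycoprotein gene, fell 2.23-fold (adjusted p = 2.3e-05). Both belong to a list of mesenchymal and matrix genes with 3 risen and 4 fallen of 24; 1 rose without untreated replicate 1 and 1 without heregulin replicate 1. Of 20 extracellular proteases and inhibitors 7 fell and 2 rose, or 0 rose without untreated replicate 1 or 3 or heregulin replicate 1 and 1 without heregulin replicate 3. PLAU, the urokinase gene, fell 3.19-fold (adjusted p = 2.3e-05), TIMP3, a metalloproteinase inhibitor, 2.46-fold (adjusted p = 3.2e-06) and MMP2, a gelatinase, 2.43-fold (adjusted p = 2.3e-05).

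Markers of other cell types moved in places. DCN, the proteoglycan decorin of fibroblast matrix, rose 3.01-fold (adjusted p = 9.1e-07), whereas LUM, another fibroblast proteoglycan, read 2.74 ± 0.03 untreated and 2.76 ± 0.04 with heregulin, and PDGFRA 3.88 ± 0.05 and 3.74 ± 0.19 (SD, n = 3). Endothelial and fibroblast markers had 2 risen and 2 fallen of 12, where 3.45% of all genes rose and 5.06% fell. The fallen count was 1 with any 1 of the 6 arrays left out. It was also 1 with only the 6 arrays and with the mean of a gene's probe sets. The risen count was 3 without heregulin replicate 1. Leukocyte markers had 1 risen, CSF1R, and 1 fallen, CD14, of 11, with PTPRC at 2.92 ± 0.08 with heregulin. Their part in the results was not tested.

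**Figure D5:**
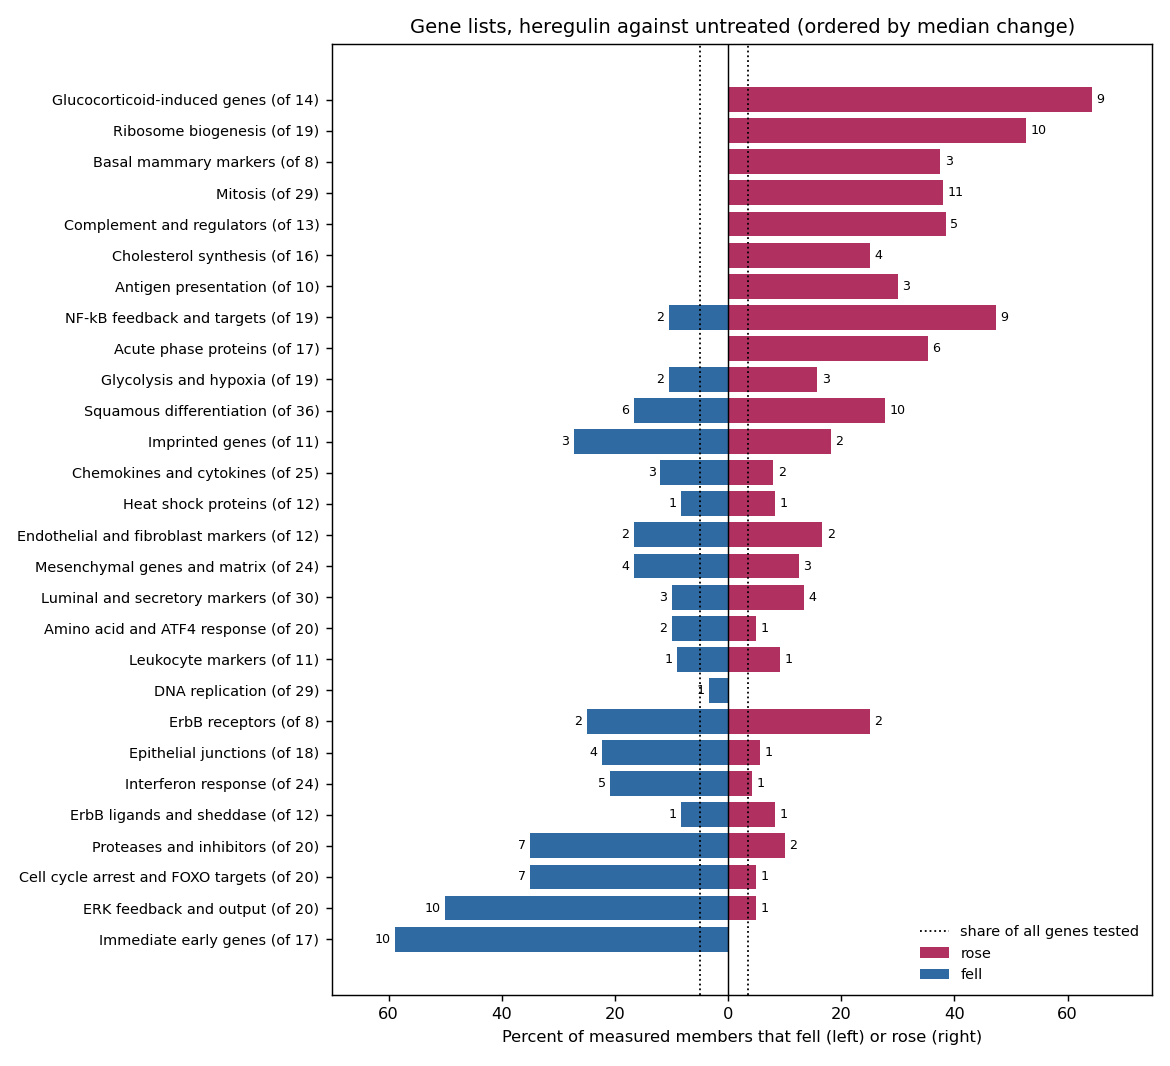
Bars give the percent of each list's measured members that fell (left) or rose (right) at an adjusted p of 0.05, with gene counts at the bar's end and lists ordered by median change; dotted lines mark the shares of all genes tested, 5.06% lower and 3.45% higher. Glucocorticoid-induced genes (9 of 14) reach farthest right and early response genes (10 of 17) farthest left.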

How the data were processed

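RNA was labelled and hybridised to Affymetrix arrays, per the labels' protocols. The deposited values are log2 probe set levels that the authors made with RMA, per the submitters' processing notes, which name no version; RMA corrects background, gives all arrays 1 distribution and summarises probes. Equal distributions hide a change of total RNA. No further scaling was applied.

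Of 33297 probe sets, 19460 named 1 gene, 1754 several and 12083 none in the annotation used; 19429 matched RefSeq (GRCh38.p14) names. For the 769 genes with several probe sets the one with the highest mean over 12 arrays was used, leaving 18417 genes. limma 3.58.1 in R 4.3.3 fitted 1 mean per group over all 12 arrays (8 residual degrees of freedom), two-sided, with Benjamini-Hochberg adjustment over all genes in each contrast and a threshold of 0.05. The procedure was tested on simulated data. The number of arrays limits the precision, and the labels give no batch.

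Named genes were the 15 largest rises and 15 largest falls that passed without overlap, 5 given markers, ErbB receptor and ligand genes, up to 5 members that passed per list, and the 8 largest changes each way among genes apart from all groups, 152 in all, plus 6 chosen after their values were seen. The 28 lists held 556 genes, 507 of them measured. The comparison, members and lists were chosen with earlier results of these data known. Alternatives were the 6 arrays of each contrast alone, renewed quantile normalization, median centring, leaving out genes below a mean of 6, the mean of a gene's probe sets, every probe set by itself, a trended robust spread, array weights and each of the 6 heregulin and untreated arrays left out. Leaving out AP1510 replicate 1 was chosen after seeing the data.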

Additional observations from a re-analysis of the deposited data

Results flagged for a closer look

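Probe sets outside the gene comparison also held differences. Of those that name several genes, 22 of 1754 passed limma's test between heregulin and untreated (1.25%), 10 higher and 12 lower, with log2 changes between -1.77 and 2.14. Of those with no gene listed in the annotation used, 43 of 12083 passed limma's test between heregulin and untreated (0.356%), 27 higher and 16 lower, with log2 changes between -1.86 and 2.82. They are given as counts, since none can be tied to 1 gene here.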

How the results depend on the processing

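The count of genes that passed between heregulin and untreated was 1039 to 1602 with 1 array left out, AP1510 replicate 1 included (an alternative chosen after seeing the data), and the lower genes 608 to 948. Array weights gave 3000 genes, 1384 higher and 1616 lower, 2452 against AP1510, and 690 apart from all groups, 386 higher and 304 lower; the list medians were then -0.18 for arrest and FOXO genes and 0.11 for complement. With only the 6 arrays of a contrast, 743 genes passed against AP1510. With dim genes left out, list medians were 0.088 for ErbB ligands (7 members left) and -0.55 for ERK feedback (12 left). They were 2.79 for acute phase (6 left), 0.29 for antigen presentation (7 left) and -0.12 for squamous genes (17 left). For mesenchymal genes the median was -0.073 (14 left) and for glucocorticoid-induced genes 1.01 (11 left). For endothelial and fibroblast genes it was 0.63, from only 2 genes left, of which 1 rose and 1 fell. The filter used each gene's mean over all 12 arrays, heregulin included. Medians with 1 array left out were -0.12 to -0.031 for ErbB receptors, -0.29 to -0.19 for arrest and FOXO genes and 0.18 to 0.28 for NF-kB genes. Without heregulin replicate 2, 48.9% of the genes that passed were higher, against 40.5% with all arrays. Of 142 named genes that passed, 21 lost the call under some alternative, each of them with an array left out, and 0 reversed. EPGN, BTC and DUSP6 passed with array weights. These weights also gave 19 risen mitosis genes, 3 risen replication genes, 9 fallen interferon genes and 5 risen antigen presentation genes, and only the 6 arrays gave 6 risen mitosis genes and 4 fallen arrest and FOXO genes. The causes were not tested. No paired analysis was possible because the labels give the arrays no replicate numbers shared between groups.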

Other observations

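In glycolysis and hypoxia 3 of 19 measured genes rose and 2 fell; 9 rose with array weights and 5 with a trended robust spread. CA12, a membrane carbonic anhydrase, read 5.69, 5.62 and 5.57 untreated and 6.80, 6.92 and 6.60 with heregulin, a rise of 2.21-fold (adjusted p = 3.4e-05), and BNIP3, a mitochondrial protein gene induced by hypoxia, rose 1.56-fold (adjusted p = 0.0012). SLC2A1, the glucose transporter GLUT1 gene, fell 1.37-fold (adjusted p = 0.0087) and PFKFB3, which makes an activator of glycolysis, 1.49-fold (adjusted p = 0.0036). In amino acid synthesis and the ATF4 response 1 rose and 2 fell of 20. PHGDH, the first enzyme of serine synthesis, read 7.09, 7.06 and 7.10 and then 6.32, 6.47 and 6.62, a fall of 1.53-fold (adjusted p = 2.8e-04), whereas TGF-alpha arrays read 9.44, 9.59 and 9.45.

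Cholesterol synthesis had 4 of 16 genes risen and 0 fallen, with SQLE, squalene epoxidase, at 1.7-fold (adjusted p = 6.0e-05). That count was 1 without untreated replicate 1, 1 without untreated replicate 2, 2 without untreated replicate 3, 1 when heregulin replicate 1 was left out and 1 for heregulin replicate 3. It was 9 with array weights, 6 with renewed quantile normalization, 6 with a trended robust spread and 2 with only the 6 arrays. Heat shock proteins had 1 risen and 1 fallen of 12, where 3.45% of all genes rose and 5.06% fell. BAG3, the gene that fell, did not pass without untreated replicate 1 or 2 or without any 1 of the heregulin arrays. HSPH1, an HSP110 chaperone gene, rose 1.53-fold (adjusted p = 5.7e-04). Its difference from TGF-alpha did not pass (log2 -0.15 ± 0.10, adjusted p = 0.34).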
